A study of Mus musculus with 60 samples.

Results

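The genes described here are the repressors and D-box output genes of the circadian clock: Nr1d1 (RefSeq NM_145434), Nr1d2 (NM_011584), Dbp (NM_016974), Tef (NM_017376), Hlf (NM_172563), Per1 (NM_011065), Per2 (NM_011066), Per3 (NM_011067), Ciart (NM_001033302) and Bhlhe41 (NM_024469). They were found by matching the RefSeq accession of each array probe to a gene symbol, which gave 12 probes for these 10 genes among 55681 probes, 26413 of which had a symbol (20018 genes). Dbp and Bhlhe41 had a pair of probes each, and the brighter probe over all arrays is given unless stated. The arrays compared lung, liver and forestomach RNA of 20 male MutaTMMouse, a transgenic strain used to count mutations, about 10 weeks old and housed singly under a light/dark cycle. The mice were gavaged daily for 28 days with olive oil alone (D0) or with benzo(ghi)perylene (BghiP), a polycyclic aromatic hydrocarbon, in olive oil at 6.25 (D1), 12.5 (D2) or 25 (D3) mg/kg-bw/day, with 5 mice in each group. Tissues were taken 72 hours after the last gavage. Each of the 60 arrays held RNA of a random section of 1 tissue of 1 mouse labelled with Cy5 and a common reference RNA from mouse cell lines labelled with Cy3, so that every value below is a log2 ratio of tissue to reference after loess normalization. Mice are named by the number in the sample titles, with 1 to 5 in D0, 6 to 10 in D1, 11 to 15 in D2 and 16 to 20 in D3, and 1 number was taken to be 1 animal in all 3 tissues.

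The circadian clock is a transcriptional loop that runs in nearly every cell. BMAL1 (the product of Arntl) and CLOCK activate genes through E-boxes, among them the Per genes, whose products repress that pair, and Nr1d1 and Nr1d2, which encode REV-ERB receptors that repress Arntl and Nfil3. Dbp, Tef and Hlf encode PAR bZIP activators of D-box genes, and the product of Nfil3 competes with them at the same sites. Ciart and Bhlhe41 encode further repressors of the loop. In liver, lung and gut the transcripts of these genes swing over the day, Dbp and Nr1d1 among the most widely, and Arntl swings in the opposite phase. The hour at which each mouse was killed was not given in the sources used here.

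The promoter table of RefSeq (build GRCm38.p6, 250 bases before to 50 bases after a gene's start) held 11 starts for 9 of the 10 genes, all but Per2. The E-box letters CACGTG, searched on both strands like the others, lay in a window of 4 of the 9 genes (Tef, Per1, Ciart and Bhlhe41). Counted by window this was 5 of 11, beside 7.15% of 32851 mouse promoters of that length. The D-box letters TTANGTAA lay in 1 of the 9, Per3 (1 of the 11 windows), and in 2.32% of all promoters. The ROR element core AGGTCA, read by REV-ERB receptors, lay in 2 of the 9, Nr1d2 and Per1 (2 of the 11 windows), and in 16.3% of all. A match of letters is a description of the window, and sites outside it were not searched. The stretches before the start of Per1, Tef and Per3 are printed because Per1 and Tef gave the closest correlations below and Per3 held the only D-box letters, with matches in capitals, 5′ to 3′ on the strand of the gene.
Per1, chr11:69098699-69098948, + strand, with an E-box 166 bases and an inverted ROR element core 137 bases before the start: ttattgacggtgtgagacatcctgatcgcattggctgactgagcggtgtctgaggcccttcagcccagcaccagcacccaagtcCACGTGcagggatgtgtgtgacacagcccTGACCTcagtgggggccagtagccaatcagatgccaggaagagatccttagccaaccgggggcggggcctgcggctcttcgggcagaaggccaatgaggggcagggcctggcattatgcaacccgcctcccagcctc
Tef, chr15:81811164-81811413, + strand, with an E-box 138 bases before the start: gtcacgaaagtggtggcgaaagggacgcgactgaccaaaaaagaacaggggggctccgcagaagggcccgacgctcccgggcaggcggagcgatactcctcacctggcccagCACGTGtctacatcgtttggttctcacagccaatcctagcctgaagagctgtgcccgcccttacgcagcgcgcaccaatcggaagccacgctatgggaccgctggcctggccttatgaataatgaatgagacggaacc
Per3, chr4:151044666-151044915, - strand, with D-boxes 205 and 158 bases before the start: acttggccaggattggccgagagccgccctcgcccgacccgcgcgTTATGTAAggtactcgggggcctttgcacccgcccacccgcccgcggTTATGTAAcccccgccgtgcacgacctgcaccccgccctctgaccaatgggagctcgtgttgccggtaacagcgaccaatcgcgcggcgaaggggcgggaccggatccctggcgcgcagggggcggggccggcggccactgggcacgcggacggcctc

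A probe was tested in a tissue where Cy5 was well above background on at least 5 of its 20 arrays. By this rule 9 of the 10 genes were tested in lung, 9 in liver and 7 in forestomach. Ciart was well above background on 1, 2 and 0 arrays of lung, liver and forestomach and was tested nowhere, and Per2 and Bhlhe41 each reached that level on 1 forestomach array. The lung and forestomach arrays of 1 mouse lay on 1 slide (5 slides in all), the liver arrays on 3 others, and each dose sat in a fixed column of the slides, so dose and column cannot be told apart. The share of probes well above background ranged from 34.9% to 58.6% over lung arrays, 36.3% to 48.3% over liver and 21.3% to 53.3% over forestomach. All 5 defining markers of each tissue were well above background on every array of that tissue. By a limit chosen after seeing the data, a mean more than 3 log2 units above the median of that tissue, markers of other tissues stood apart on 5 arrays: the lung array of mouse 1 (squamous epithelium at a mean log2 ratio of 4.58 against a lung median of -0.07, and skeletal muscle at 4.76), of mouse 20 (liver markers at 4.88) and of mouse 8 (fat cell markers at 4.59), and the forestomach arrays of mouse 2 (lung markers at 5.88) and mouse 5 (fat cell markers at 5.46). The fat cell markers on the lung array of mouse 14 (3.97, lung median 1.53) were the next highest of that list in lung and lay below the limit, so that mouse 14 was kept where such arrays were left out. The markers of glandular stomach ran from 0.27 to 7.79 over the forestomach arrays and those of liver from 0.02 to 5.39, and their part in the forestomach values below was not tested.

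In the comparison of tissues, averaged over the doses, 7 genes were tested in all 3 tissues. By the limits given next, 5 of the 7 (Nr1d1, Nr1d2, Dbp, Tef and Hlf) were called lower in forestomach than in both lung and liver. Per3 also had its lowest mean in forestomach, but its difference from liver was under 1.5-fold. Relative to the reference, 7 of the 7 genes tested in both were higher in lung than in forestomach (adjusted p of 0.05 or less and 1.5-fold or more in limma, background 39.1% of the 24074 probes tested in both, and 34.6% of the 33255 tested in any tissue). These 7 include Per3, which was well above background on 5 of 20 forestomach arrays and has an uncertain size there. Between liver and forestomach 5 of 7 were called (background 44.8%, or 39% of those tested in any tissue), all higher in liver, and between lung and liver 3 of 9 (background 49.7%, or 45.6%), 2 of them higher in lung. Per2 and Bhlhe41, well above background on 1 of 20 forestomach arrays each, were left out of the counts with forestomach. In tissue RNA, fewer cells that express a gene and less RNA per cell cannot be told apart, and for liver, tissue cannot be told apart from its slides.

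Hlf, one of the PAR bZIP genes, had the largest difference of these genes between any pair of tissues. Its ratios over 20 mice ran from 2.72 to 3.62 in liver, 0.54 to 2.40 in lung and -0.15 to 1.99 in forestomach. The liver values lay above all values of the other tissues, and the difference from forestomach was 2.35 ± 0.12 (SE, log2; adjusted p = 8.71e-24), or 5.09-fold. Tef, its paralog, had the other order, with means of 1.69 in lung, 0.51 in liver and -0.28 in forestomach. Tef was higher in lung than in liver by 1.18 ± 0.12 (SE, log2; adjusted p = 5.02e-13), in 20 of 20 mice. Dbp, the third of these activators, had means of 1.14 in lung and 0.93 in liver, which did not differ beyond their spread (adjusted p = 0.518), and -1.01 in forestomach. The difference of Dbp between lung and forestomach was 2.15 ± 0.29 (SE, log2), or 4.42-fold, and was seen in 19 of 20 mice.

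Among the repressors, Per1 alone was called both between lung and liver and between lung and forestomach. Its means were 0.35 in lung, -1.46 in liver and -1.15 in forestomach, and it was higher in lung than in liver in 20 of 20 mice, by 1.82 ± 0.19 (SE, log2; adjusted p = 2.96e-12). Nr1d1 had almost the same mean in lung (1.61) and liver (1.64; adjusted p = 0.86) and a lower one in forestomach (0.38), with a difference from lung of 1.23 ± 0.18 (SE, log2). Nr1d2 was highest in liver (0.93), with 0.63 in lung and -0.14 in forestomach, and its difference between lung and liver was under 1.5-fold. Per3 had means of 0.42 in lung, 0.05 in liver and -0.28 in forestomach. Per2 had means of 0.46 in lung and 0.67 in liver, which did not differ beyond their spread (adjusted p = 0.128). In the vehicle mice alone, the lung and forestomach differences of Nr1d1 (adjusted p = 0.0811) and Hlf (0.0808) did not pass.

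**Figure D1:**
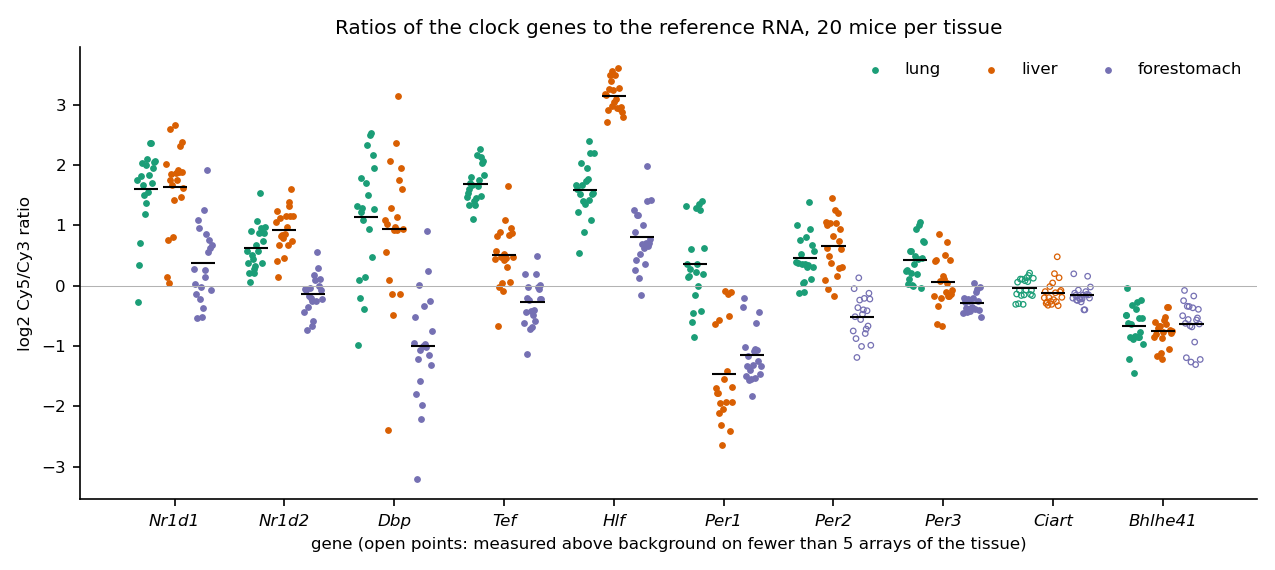
Log2 Cy5/Cy3 ratio of each gene (y axis) in lung, liver and forestomach, with 1 point per mouse (20 per tissue) and a line at the mean; open points mark a tissue in which the probe was well above background on fewer than 5 arrays. Hlf stands highest in liver, Tef and Per1 in lung, and Dbp runs from -3.20 in a forestomach to 3.14 in a liver.

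Each dose group was set against the vehicle mice to ask whether exposure altered these genes. Without a term for slide, no dose gave a call in lung (0 of 9 genes), liver (0 of 9) or forestomach (0 of 7), and 0% of all probes were called in any of these 9 comparisons. At an unadjusted p under 0.05, 4 of the 9 lung genes passed at D3, beside 4.81% of all lung probes. The same count was 2 of 9 for liver, beside 12.1% of all probes, and 0 of 7 for forestomach, beside 1.5%. The D3 differences were above 0 for 8 of 9 genes in lung (median 0.36, log2), 8 of 9 in liver (median 0.27) and 6 of 7 in forestomach (median 0.34), beside medians over all probes of 0.009, -0.0004 and 0.009. At D2 they were above 0 for 8 lung genes, 9 liver genes and 6 forestomach genes, with medians of 0.37, 0.32 and 0.29. At D1 this held for 3 of 9 lung genes (median -0.06), 7 liver genes (median 0.14) and 4 forestomach genes (median 0.02). Without mouse 4 of D0, which held many of the lowest values, the medians at D3 were 0.27, 0.19 and 0.17 in lung, liver and forestomach. Those at D2 were then 0.35, 0.18 and 0.14, and those at D1 were -0.05, -0.04 and -0.24. The counts above 0 without mouse 4 were 7, 7 and 6 at D3, 8, 9 and 6 at D2 and 2, 4 and 1 at D1. For each of the tested genes the mice of each dose group overlapped with those of D0, and over all probes the groups did not overlap for 0.301%, 0.515% and 0.826% in lung at D1, D2 and D3, for 0.371%, 0.433% and 2.73% in liver and for 0.407%, 0.532% and 0.246% in forestomach.

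Nr1d1, the gene of REV-ERB alpha, came nearest to a call. In lung its ratios were 1.75, -0.27, 0.34, 0.71 and 1.82 in the D0 mice and 2.36, 1.70, 1.96, 2.05 and 2.07 in the D3 mice. D0 mice 2, 3 and 4 lay below every exposed mouse, while mice 1 and 5 lay within the range of D3. The SD was 0.90 in D0 and 0.24 in D3, and the difference of the means was 1.16 ± 0.30 (SE, log2), with an unadjusted p of 0.00109 and an adjusted p of 0.751 in limma. These fits, with or without slide, take the same spread for every dose group, which the SDs of D0 and D3 do not show. With slide as a block the same difference had an SE of 0.25 and an adjusted p of 0.048, and Nr1d1 was then the only one of the 9 genes called (background 0.0677%), while in liver the slide block gave 0 of 9 at D3 (background 0.0927%). With the slide block and each mouse left out in turn, an alternative chosen after seeing the data, the call held in 2 of 20 fits (adjusted p 0.0147 to 0.128, difference 0.88 to 1.37). Without the lung arrays of mice 1, 8 and 20, which carried markers of other tissues, and without a slide term, the difference was 1.37 with an adjusted p of 0.866.

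In liver the Nr1d1 ratios were 2.02, 0.14, 0.76, 0.04 and 1.76 in D0 and 2.32, 1.47, 2.38, 1.89 and 1.62 in D3. Mice 2, 3 and 4 were again the lowest of D0, and mice 1 and 5 lay among the exposed mice. The difference was 0.99 ± 0.35 (SE, log2; adjusted p = 0.26, or 0.179 with the slide block), and at D2 it was 1.07 ± 0.35 (adjusted p = 0.995). In forestomach the D3 difference of Nr1d1 was 0.37 ± 0.35 (adjusted p = 1). It was 0.19 without mouse 4, and 0.64 (adjusted p = 0.99) without the arrays of mice 2 and 5, which carried markers of other tissues. The D3 difference did not differ detectably between any pair of tissues, for this or the other genes: 0 of the 9 genes were called in any of the 3 interactions, with or without the mouse as a block (background 0%).

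Dbp had wider groups than Nr1d1 and, at D2 and D3, larger differences. At D1 the difference of Dbp was the smaller in lung (0.49, Nr1d1 0.68) and in liver (0.66, Nr1d1 0.73). Without mouse 4 of D0 it was also the smaller in liver at D3 (0.53, Nr1d1 0.76). The lung ratios of Dbp were 1.32, -0.98, 0.10, -0.21 and 1.23 in D0, 1.71, 2.33, 1.502, 0.94 and 2.50 in D2, and 2.54, 0.47, 2.17, 1.27 and 1.95 in D3. Every D2 mouse was above the D0 mean, yet D0 mice 1 and 5 overlapped with D2 and D3. The differences were 0.49 at D1, 1.51 at D2 and 1.39 at D3, each ± 0.49 (SE, log2), with adjusted p-values of 1, 1 and 0.897, and the D1 value ran from 0.17 (without mouse 2) to 0.78 (without mouse 9) when 1 mouse was left out. In liver they were 0.66, 1.64 and 1.15, each ± 0.61, and in forestomach 0.18, 1.05 and 0.89, each ± 0.51. These rested in part on mouse 4 of D0, at -2.39 in liver and -3.20 in forestomach. Without it they were 0.04, 1.02 and 0.53 in liver and -0.24, 0.64 and 0.47 in forestomach. Without the arrays that carried markers of other tissues, the D3 difference of Dbp was 1.58 in lung and 1.33 in forestomach, neither called, where mouse 4 stayed among the 3 D0 mice left in forestomach. The second Dbp probe correlated with the first at r of 0.96 or more in each tissue over the mice.

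The remaining genes had smaller differences at D3. Nr1d2 differed from D0 by 0.36 ± 0.17 in lung, 0.51 ± 0.19 in liver and 0.36 ± 0.19 in forestomach (SE, log2; adjusted p of 0.998, 0.284 and 1). Tef differed by 0.39 ± 0.16 in lung and 0.41 ± 0.28 in liver, and Hlf by 0.40 ± 0.25 in lung and -0.08 ± 0.14 in liver. Without mouse 4 the value of Tef in liver was 0.19 and that of Hlf in lung 0.20. Per1 had the lowest mean at D1 in all 3 tissues (lung -0.29, liver -1.90, forestomach -1.50), with a forestomach difference from D0 of -0.62 ± 0.25 and an adjusted p of 0.506. Per2, Per3 and Bhlhe41 differed from D0 at D3 by between -0.04 and 0.34 in the tissues where they were tested. A linear slope on dose was not called for any of these genes in lung (background 0%), liver (background 0.239%) or forestomach (background 0%), nor with slide as a block, where the background was 0.306% in lung and 2.61% in liver. For Nr1d1 in lung the slope was 1.08 ± 0.31 per 25 mg/kg-bw/day (SE, log2; adjusted p = 0.721).

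**Figure D2:**
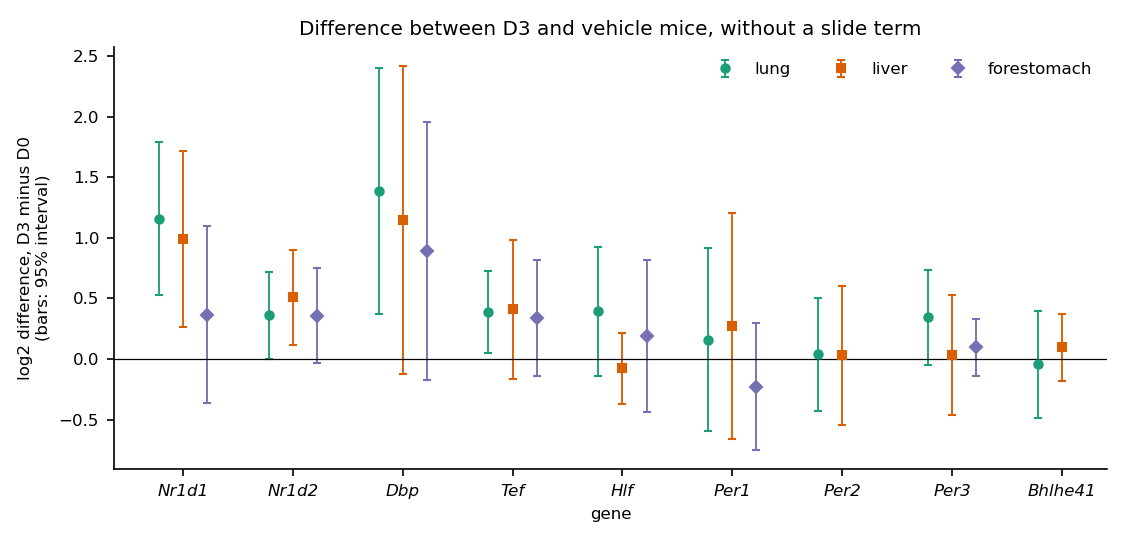
Difference in log2 ratio between D3 and D0 (y axis) for each gene tested in lung, liver and forestomach, with 5 mice per group; bars are 95% intervals from limma without a slide term. The points of Nr1d1 and Dbp lie highest and those of Dbp have the widest intervals, 0.37 to 2.40 in lung and -0.12 to 2.42 in liver.

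**Figure D3:**
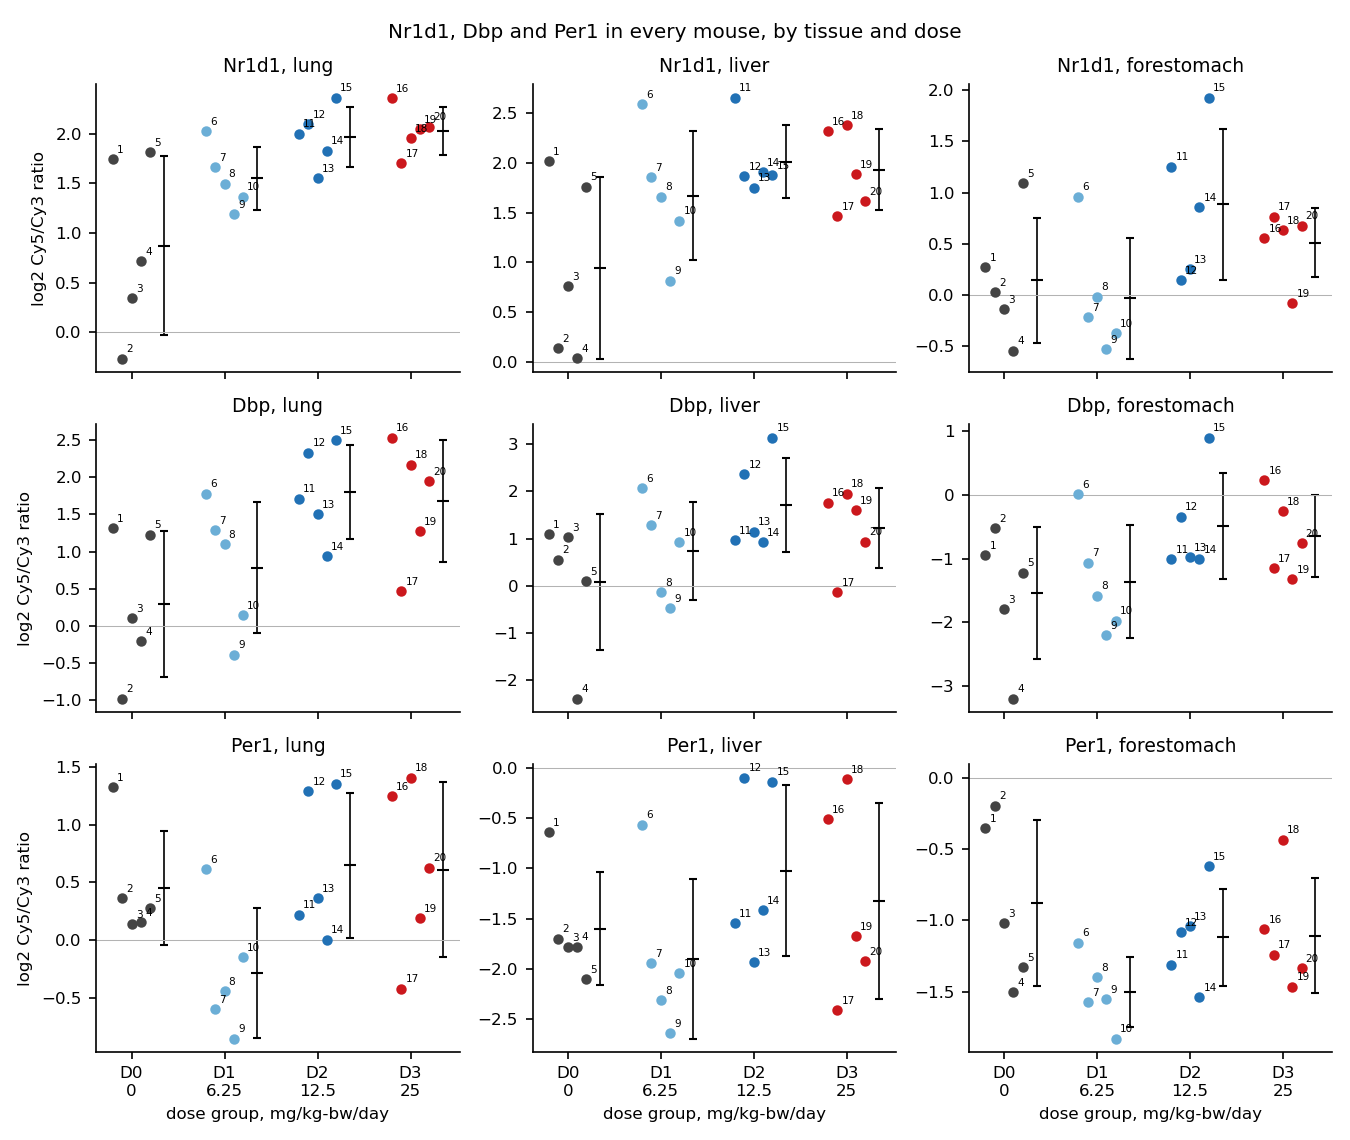
Log2 Cy5/Cy3 ratio (y axis) of Nr1d1, Dbp and Per1 by dose group in mg/kg-bw/day (x axis) in lung, liver and forestomach, with 1 point and its number for each mouse and the group mean ± SD at the right of each group of 5. Mouse 4 is the lowest Dbp value in liver (-2.39) and forestomach (-3.20), and mouse 15 the highest in both.

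Within a dose group most of these genes varied more between mice than most probes did. The within-dose SD of Dbp was 0.84 in lung, 1.10 in liver and 0.86 in forestomach, larger than for 98.8%, 99.9% and 93.9% of the probes tested there, where the median SD was 0.20, 0.19 and 0.29. From the lowest to the highest mouse Dbp spanned 11.5-fold in lung, 46.4-fold in liver and 17.2-fold in forestomach. Without the lowest mouse, mouse 2 in lung and mouse 4 in the others, the spans were 7.58-fold, 12.3-fold and 8.63-fold. For Per1 the SD was larger than for 96.2%, 99.6% and 72.6% of probes, and for Nr1d1 than for 93.7%, 99.0% and 86.4%. Hlf in liver (74.2%) and Per3 in forestomach (6.53%), which was well above background on 5 of 20 arrays there, were among the steadier.

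A few mice held the extremes of many of these genes. Mouse 15 (D2) had the highest value of 5 of 9 genes in lung, with 4 of 9 for liver and 5 of 7 for forestomach. The lowest values belonged to mouse 4 (D0) for 4 of 9 liver genes, 4 of 7 forestomach genes and 3 of 9 lung genes. The forestomach array of mouse 15 was also the one with the highest liver markers (5.39), whereas no marker list stood apart on its lung and liver arrays or on any array of mouse 4.

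The same mice could be followed from tissue to tissue, by correlating each gene's deviations from its dose means over the 20 mice. For lung and liver, which shared no slide, 8 of 9 genes had a positive Pearson r, with a median of 0.455 beside -0.007 over all probes. After Benjamini-Hochberg adjustment over all probes, 2 of the 9 passed, Per1 and Nr1d1 (background 0.819% of 24302 probes). For liver and forestomach, 7 of 7 were positive with a median of 0.54 (all probes -0.02), and 1 of 7 passed, Dbp (background 0.2%). For lung and forestomach, which shared slides, 7 of 7 were positive with a median of 0.54, but the median over all probes was 0.32 and 21.7% of all probes passed, beside 2 of the 7, Hlf and Per1. The reference channel of the same probes, which holds no RNA of these mice, correlated between lung and forestomach arrays at r of 0.64 to 0.99, and between lung and liver at -0.59 to -0.12. Those reference values are raw log2 Cy3 signals before normalization, so they are not on the same measure as the ratios. In all, 23 such relations were computed.

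Per1 had the smallest adjusted p between lung and liver (adjusted p = 1.06e-04; with slide means removed 0.00344, the only one of the 9 genes then called, background 0.63%). Its liver values fell into 2 sets with a gap between them, so that no coefficient over all mice is given. Mice 1, 6, 12, 15, 16 and 18, of all 4 dose groups, had liver ratios from -0.64 to -0.09 and lung ratios from 0.61 to 1.41. The other 14 mice had liver ratios from -2.64 to -1.42 and lung ratios from -0.86 to 0.63. The sets therefore overlapped barely in lung, by mice 6 (0.61) and 20 (0.63). Within the 6 mice r was 0.50 (Spearman's rho 0.37, r = 0.28 without the 2 mice farthest from the median), and within the 14 it was 0.65 (rho 0.49, r = 0.53 likewise). These values are a description with no test, since the sets were formed from the liver values after they were seen and dose means were not removed. The call of Per1 held in all 20 fits that left out 1 mouse, and without the mice whose lung array carried markers of other tissues (adjusted p = 4.91e-04).

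Nr1d1 correlated between lung and liver at r = 0.78 (permutation p = 0.00368; rho = 0.74, p = 0.00275; adjusted p = 0.0363). Mice 1, 5 and 6 lay above their dose means in both lung and liver, and mice 2, 9 and 17 lay below them in both. Without mice 2 and 5, the farthest from the median in lung, r was 0.73, and with slide means removed it was 0.79 with an adjusted p of 0.248. The call held in 7 of the 20 fits without 1 mouse, with r between 0.71 and 0.82, and without the mice whose lung array carried markers of other tissues r was 0.73 (adjusted p = 0.222). Dbp correlated between liver and forestomach at r = 0.82 (permutation p = 0.00038; rho = 0.75, p = 0.001; adjusted p = 0.0356), and its second probe at 0.85. Its liver and forestomach deviations had the same sign in 17 of 20 mice. Mouse 4 was the lowest in both tissues, and without mice 4 and 17 r was 0.73. With slide means removed it was 0.75 (adjusted p = 0.535), and the call held in 6 of 20 fits without 1 mouse. Without the mice whose forestomach array carried markers of other tissues r was 0.84 (adjusted p = 0.0508).

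Between lung and forestomach Hlf correlated at r = 0.76 (permutation p = 0.00039; rho = 0.73, p = 0.00094; adjusted p = 0.00478), and at 0.58 with slide means removed (adjusted p = 0.681). Per1 correlated there at r = 0.63 (permutation p = 0.00293; rho = 0.59, p = 0.00655; adjusted p = 0.0374), at 0.52 without its 2 farthest mice and at 0.63 with slide means removed (adjusted p = 0.621). Without the mice whose array of either tissue carried markers of another, r was 0.69 for Hlf and 0.70 for Per1 (adjusted p of 0.0852 and 0.0781). The call of Hlf held in 20 of 20 fits that left out 1 mouse and that of Per1 in 12 of 20 (adjusted p 0.0113 to 0.0977). With slide means removed 0 of the 7 genes passed (background 0.265%), and likewise 0 of 7 between liver and forestomach (background 0.0591%). For Dbp between lung and forestomach r was 0.59 (permutation p = 0.0145; adjusted p = 0.0552), and 0.88 without mice 2 and 17. Its second probe lay on the other side of the limit, at r = 0.65 (adjusted p = 0.0291). With slide means removed the 2 probes had r of 0.40 and 0.51 (adjusted p of 0.903 and 0.786). Nr1d2, Tef, Per2, Per3 and Bhlhe41 passed in none of the pairs of tissues in which they were tested. Bhlhe41 had r of -0.002 between lung and liver, or 0.47 with slide means removed (adjusted p = 0.816), and slides held 82.8% of its within-dose variance in lung beside a median of 59.5% over all probes.

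**Figure D4:**
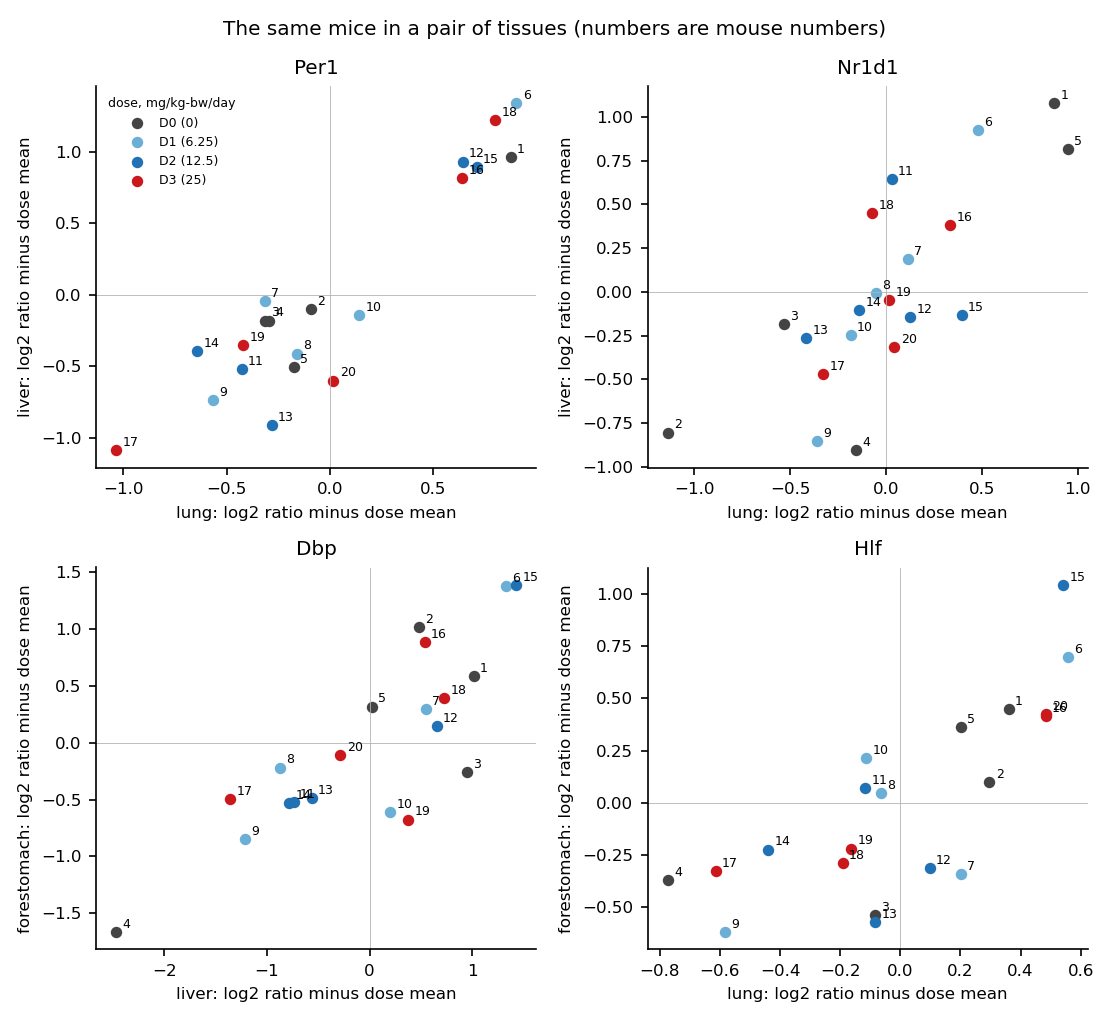
Deviation of each mouse from its dose mean (log2 ratio) in 1 tissue (x axis) against another (y axis), for Per1 and Nr1d1 in lung and liver, Dbp in liver and forestomach and Hlf in lung and forestomach; colours mark the dose in mg/kg-bw/day and numbers the mouse. Per1 splits into 6 mice at the upper right and 14 others, and mouse 4 is farthest out for Dbp.

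Within a tissue most of these genes correlated positively with Dbp, which had the largest within-dose SD of them. Over the 20 mice, with dose means removed, the correlation with Dbp was positive for 8 of 8 genes in lung (median r 0.64), 8 of 8 in liver (0.67) and 6 of 6 in forestomach (0.69), beside medians over all probes of -0.02, -0.006 and 0.04. All of these values come from the same arrays, so that the genes share array, slide and section. In liver 1 of 8 passed after adjustment over all probes (background 0.0773%), and in lung and forestomach 0 of 8 and 0 of 6 (background 0.013% and 0%). Over these 22 relations the permutation p was under 0.05 for 7 of 8 lung genes, 6 of 8 liver genes and 5 of 6 forestomach genes. As background, 6.83% of lung probes, 6.59% of liver probes and 4.03% of forestomach probes had an unadjusted p under 0.05 by the correlation test on 15 degrees of freedom, which is not the permutation test.

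The one that passed was Tef in liver, with r = 0.96 (permutation p = 1e-05, the smallest the draws can give; rho = 0.93, p = 1e-05; adjusted p = 4.5e-05). Liver Tef was lowest in mouse 4 (-0.67) and highest in mouse 15 (1.66), the same mice as for Dbp (-2.39 and 3.14). Without mice 4 and 17, the farthest for Dbp, r was 0.94, and with slide means removed it was 0.96 (adjusted p = 2.72e-04, background 0.0155%). In lung the r of Tef with Dbp was 0.53 and in forestomach 0.69. Nr1d1 had its closest relation to Dbp in lung (r = 0.82, permutation p = 2e-05, adjusted p = 0.144), against 0.53 in liver. Per3 in liver reached 0.79 and Bhlhe41 in liver 0.79, both with an adjusted p of 0.102, while Per2 in liver was at 0.15. Bhlhe41 was well above background on 8 of 20 liver arrays, and its second probe, above background on 0 of them, had r = 0.48.

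Arntl, the activator of the loop, ran opposite to Dbp. In liver r was -0.935 (rho = -0.97; adjusted p = 5.02e-04) and in lung -0.91 (rho = -0.905; adjusted p = 0.00767), and in forestomach -0.46 (adjusted p = 0.997). Each of the permutation p-values in liver and lung was 1e-05, the smallest the draws can give. Liver Arntl was highest in mouse 4 (1.43) and lowest in mouse 15 (-1.67), the mice at the other ends of the Dbp range, and without mice 4 and 17 r was -0.96. With slide means removed the liver value was -0.93 (adjusted p = 0.0056) and the lung value -0.85 (adjusted p = 0.306). Arntl also passed between lung and liver, at r = 0.76 (adjusted p = 0.0452), and did not pass with slide means removed (r = 0.79, adjusted p = 0.237). Nfil3, the repressor of D-box genes, correlated with Dbp at -0.86 in lung, -0.78 in liver and -0.68 in forestomach, with adjusted p-values of 0.0655, 0.124 and 0.997. Between lung and forestomach Nfil3 itself passed, at r = 0.78 (permutation p = 0.00184; rho = 0.87; adjusted p = 0.0029), where 21.7% of all probes passed. With slide means removed that value was 0.57 (adjusted p = 0.694).

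**Figure D5:**
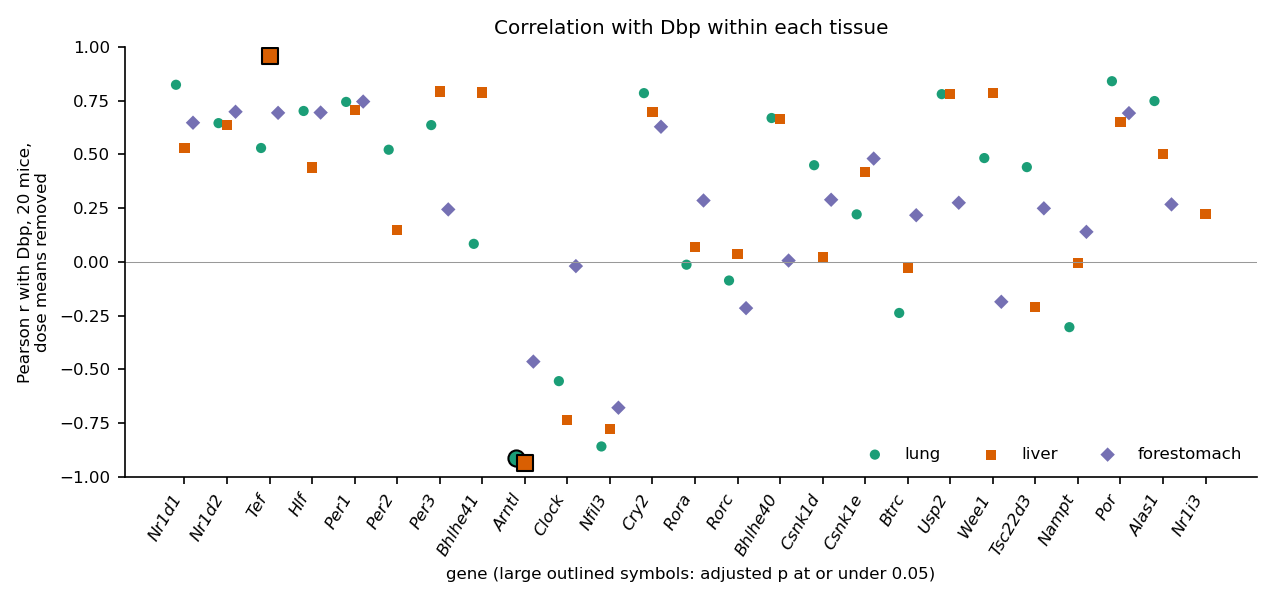
Pearson r with Dbp over 20 mice (y axis, dose means removed) for the clock repressors and output genes, other clock genes and clock-driven genes (x axis) in lung, liver and forestomach; large outlined symbols have an adjusted p of 0.05 or less. Tef in liver (0.96) and Arntl in liver (-0.935) and lung (-0.91) are the outlined symbols.

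Outside the clock lists, the transcripts with the highest and lowest r with Dbp are named as a description. In lung the highest were Sord (r = 0.90), Cab39l (0.85) and Acsl1 (0.84), and the most opposite were Rasl11a (-0.90), Dtx4 (-0.90) and H2bc21 (-0.82), out of 13137 probes with a symbol and a Cy5 signal well above background in all 20 lungs. In liver the highest were Slc2a5 (0.845), Mtss1 (0.83) and Upp2 (0.83), with Lnx2 (-0.88), Net1 (-0.87) and Pnrc1 (-0.87) at the other end of 13145. In forestomach the highest were Mapk8ip1 (0.83), Gamt (0.80) and Prkd3 (0.74), and Ndufaf4, Nars and Mrpl16 at -0.72, out of 8078. In the other tissues r was closer to 0 for each of these genes. Sord, Cab39l and Acsl1 had r of -0.20 to 0.12 in liver and 0.11 to 0.71 in forestomach, and the 3 most opposite in lung -0.62 to 0.12 and -0.15 to 0.40. For Slc2a5, Mtss1 and Upp2 r was -0.47 to 0.21 in lung and -0.30 to 0.51 in forestomach, and for Mapk8ip1, Gamt and Prkd3 0.26 to 0.60 in lung and 0.03 to 0.45 in liver. The most opposite of liver and forestomach lay between -0.10 and 0.40 elsewhere.

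Per1 was set against all probes in the same way, which was chosen after its values had been seen. In lung 1 probe passed (background 0.00324%), that of Alas1, the first enzyme of heme synthesis, at r = 0.92 (adjusted p = 0.00687, or 0.102 with slide means removed). Usp2, a ubiquitin protease driven by the clock, was at 0.87 in lung and Cry2, a repressor of the loop, at 0.86, both with an adjusted p of 0.0826. Dbp and Per1 correlated at 0.74 in lung and 0.75 in forestomach, with adjusted p-values of 0.314 and 0.849 among the relations to Dbp. In liver 0.0271% of probes passed with Per1 and none of these genes did, and no coefficient is given there, since the liver values of Per1 lay in 2 sets.

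The other clock genes gave no call by dose. Of 14 genes of the activator arm and its modifiers (Arntl, Clock, Cry1, Cry2, the casein kinases and others), 11 were tested in each tissue, and at D3 0 were called higher and 0 lower, with medians of 0.01, 0.03 and 0.05 (log2) in lung, liver and forestomach. Of 7 genes driven by the clock, 6, 7 and 6 were tested and 0 were called, with medians of -0.12, -0.01 and -0.20. The lowest difference at D3 among the first list was that of Nfil3 in each tissue (-0.65 in lung, -0.32 in liver and -0.42 in forestomach), and the highest was that of Cry2 in liver (0.36) and Rora in forestomach (0.48). Among the second list the highest and lowest were Wee1 (0.10) and Tsc22d3 (-0.51) in lung, Usp2 (0.23) and Alas1 (-0.64) in liver, and Usp2 (0.30) and Alas1 (-0.26) in forestomach. Among the tested genes of both lists, Nfil3 in lung was the one whose D0 and D3 mice did not overlap (1 of 17 there, background 0.826% of probes), with -2.23, -1.06, -1.71, -1.68 and -2.15 in D0 and -2.56, -2.29, -2.33, -2.39 and -2.53 in D3. That difference was -0.65 ± 0.19 (SE, log2), with an adjusted p of 0.786 in limma, or 0.0566 with slide as a block.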

How the data were processed

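Lung, liver and forestomach RNA of 20 mice was hybridized with a common reference RNA on 60 Agilent SurePrint G3 mouse arrays. The deposited scanner files (Feature Extraction 10.7.3.1, array design on mouse build mm9) hold spot intensities of Cy5 and Cy3. The authors also deposited log2 ratios after LOWESS normalization of median signals without background subtraction, used as an alternative. Arrays carry no read depth, and their number limits the precision.

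Median intensities were loess-normalized within each array in limma 3.58.1 (R 4.3.3), without background subtraction, and spots of 1 probe were averaged. No dyes were swapped, so a dye effect would be shared by all arrays of a tissue. Groups came from the sample labels. Symbols came from a RefSeq table of GRCm38.p6. A probe was tested where Cy5 was well above background on 5 or more of the 20 arrays of a tissue. Each dose was compared with D0 in 1 limma fit per tissue, two-sided, with Benjamini-Hochberg adjustment over all probes tested, and a call needed 1.5-fold or more with an adjusted p up to 0.05. Slopes on dose needed no minimum fold. Tissues were compared in 1 model of 12 groups. Correlations used deviations from dose means with 100000 permutations within dose groups for these genes, and the correlation test on 15 degrees of freedom with adjustment over all probes.

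Named besides the 10 genes were, for each tissue, the 3 genes most and the 3 least correlated with Dbp. Of each clock list, the largest rise and fall at D3 and the genes called in a test were named. The called genes were Arntl, Nfil3 between lung and forestomach, and Alas1 with Per1. The result for 1 gene of these lists is not reported here. The genes and lists were chosen with earlier results of these data known. The fits were tested on simulated data. Alternatives were normexp background correction, processed signals, the deposited ratios, Cy5 alone, other filters, slide as a block, a shuffled F test and leaving out each mouse. Lung and forestomach deviations of 1 mouse number correlated over the tested probes with a median r of 0.319, on shared slides, and the numbers come from the titles, so the mouse was used as a block between tissues as an alternative. Whether the mice of a group were littermates was not given in the sources used here.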

Additional observations from a re-analysis of the deposited data

Results flagged for a closer look

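In 6 of 100 groups of 5 mice (6%), the highest or lowest mouse stood apart from the other 4 by more than 0.71 of the group's range, and chance gives about 1 such group in 20. Nr1d1 in liver was 2.66 in mouse 11 of D2, with the next mouse at 1.91. Nr1d1 in forestomach was -0.0763 in mouse 19 of D3, below the next at 0.55. Dbp in liver was -2.39 in mouse 4 of D0, below the next at 0.0937. Per1 in mouse 1 of D0 stood above its group both in lung (1.32, next 0.36) and in liver (-0.64, next -1.70), and the lung array of that mouse was the one with markers of squamous epithelium and skeletal muscle. Per3 in liver was 0.42 in mouse 18 of D3, with the next at -0.0778.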

How the results depend on the processing

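The number of these genes called by dose stayed at 0 in 275 of 276 combinations of dose, tissue and alternative. The exception was lung at D3 with slide as a block, with 1 call (Nr1d1). No slope was called in any of 81. With the mouse as replicate block, which pairs the tissues of 1 animal, 3, 8 and 6 of the 9 genes tested in any tissue differed between lung and liver, lung and forestomach, and liver and forestomach, Per2 among the 8 and the 6, and 0 of the interactions, as without it. Between lung and liver 5 were called with processed signals without loess, and under that setting the lung minus forestomach difference of Bhlhe41 turned to 0.94.

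The correlations between tissues moved most. For lung and liver 2 genes passed, and 1 with Cy5 signals alone, with no filter on dim probes, with slide means removed and without the arrays with markers of another cell type, a setting chosen after seeing the data. For lung and forestomach 2 passed, and 0 with slide means removed, 6 with dose means kept and 1 without those arrays. The 1 that passed without those arrays was neither Hlf nor Per1. For liver and forestomach 1 passed, and 0 under each of Cy5 alone, no filter, slide means removed and without those arrays. Leaving out 1 mouse gave 1 to 2, 1 to 4 and 0 to 1. With Dbp, processed signals gave 1 call in lung (0 otherwise) and 3 in liver (1 otherwise). Leaving out 1 mouse gave 0 to 1 in lung, with the call when mouse 2 was left out, and 1 to 2 in liver, with the added call without mouse 4. The cause of these shifts was not tested. Per2, Per3, Bhlhe41 and Ciart lay near background in forestomach, and Bhlhe41 and Ciart in liver, which limits their values there.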
